A study of Canis lupus familiaris with 7 samples.

Results

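The genes examined here are those by which cells of the dog heart display peptides to T cells: the canine major histocompatibility genes, whose symbols start with DLA, with CD74, B2M, TAP1, TAP2, TAPBP and CIITA. They were taken by symbol, but the choice was made with earlier results of these data known. The symbols matched 16 genes of the 15115 with a symbol of their own on the array, read by 34 of its 42924 probe sets, each a small group of probes aimed at 1 transcript. Of these, 7 genes with 16 probe sets serve class I and 9 genes with 18 probe sets serve class II. DLAT, a subunit of pyruvate dehydrogenase whose symbol happens to start with the same letters, was set aside with its 2 probe sets. Another 2 probe sets that carry a pair of class I symbols each were not used.

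Left ventricular RNA was measured on 7 one-colour Affymetrix canine arrays. The low-salt group has 4 samples (numbered 1 to 4) of adult male mongrel dogs kept for 2 weeks on food with 0.5% sodium chloride, and the control group has 3 samples (numbered 1, 3 and 4) of male dogs whose salt intake the labels do not record. The design text counts 10 dogs on the diet without saying how the 4 arrays were drawn from them. The labels do not tie each array to an animal of its own, and the p-values below therefore rest on array-to-array spread that may be technical in part.

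Class I molecules sit on nearly every nucleated cell and consist of a heavy chain and the small subunit β2-microglobulin. They carry peptides cut in the cytosol, pumped into the endoplasmic reticulum by the transporter of TAP1 and TAP2 and loaded with the help of tapasin. Class II molecules are made by macrophages, dendritic cells and B cells among others, and in some species by endothelium. Their α and β chains assemble on the invariant chain CD74, which blocks the groove until proteases cut it away. The DM molecule then exchanges the last CD74 fragment for another peptide. In the heart, resident macrophages and dendritic cells are the best-known class II-bearing cells. In the reference assembly UU_Cfam_GSD_1.0 15 of the 16 genes were found, and 12 share the chromosome of DLA-DRA. There DLA-DOB, TAP2, PSMB8, TAP1, PSMB9, DLA-DMB and DLA-DMA follow each other as neighbours, while CD74, CIITA and DLA-79 lie on other chromosomes.

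Values below are log2(deposited intensity + 16) after quantile normalization unless called deposited intensities, and changes are low salt minus control with the SE of the limma fit. Of the 34 probe sets, 26 from 12 genes were bright enough to be tested, on their mean over all 7 arrays. Within the low-salt group the deposited median of an array lay between 19.3 and 44.2, against 31.5 to 51.3 in controls. The GAPDH 3' over middle signal ratio, a measure of RNA integrity, was 1.48 to 1.93 in low salt and 2.22 to 2.55 in controls, and the groups were apart (two-sided exact permutation test, p = 0.0571, the lowest value possible with 35 splits). The 3' over 5' ratio of GAPDH was 14.5 to 22.6 in low salt and 22.7 to 40.9 in controls, while the actin 3' over middle ratio overlapped, at 61.2 to 176 in low salt and 53.6 to 182 in controls (exact permutation p = 0.971). The part of RNA integrity in the results was not tested.

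No probe set of these genes passed an adjusted p of 0.05 over all 28616 tested by limma, and 0.346% of all did (0.0384% higher and 0.308% lower). The smallest adjusted p was 0.154, for a CD74 probe set. At an unadjusted p under 0.05 stood 8 higher and 1 lower, or 34.6% of the 26, where 11.0% of all probe sets did (5.27% higher and 5.78% lower). With array medians set equal they were 9 higher and 0 lower, when 9.92% of all probe sets were higher and 3.81% lower. With values as deposited 6 of the 26, or 23.1%, stood there, against 13.6% of all. The 9 of the quantile-normalized fit come from 6 genes with 3 probe sets for CD74 and 2 for TAPBP, so they are not independent. Without control 3 the number was 4 of 26, when 10.9% of all tested probe sets passed. The groups did not overlap in 5 of the 26, all higher in low salt, against 5.13% of all probe sets higher, 5.68% lower and 10.8% in either direction. A change above 0 was found for 22 of 26, with a median of 0.27, while 53.8% of all changes were above 0 with a median of 0.04. Class I held 4 of the higher and the 1 lower among 13 tested, with a median change of 0.21, and class II held the 4 others among 13, with a median of 0.33. By the methods' t-test on the same values 0 passed after adjustment and 5 of 26 stood at an unadjusted p under 0.05, against 10.0% of all.

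**Figure D1:**
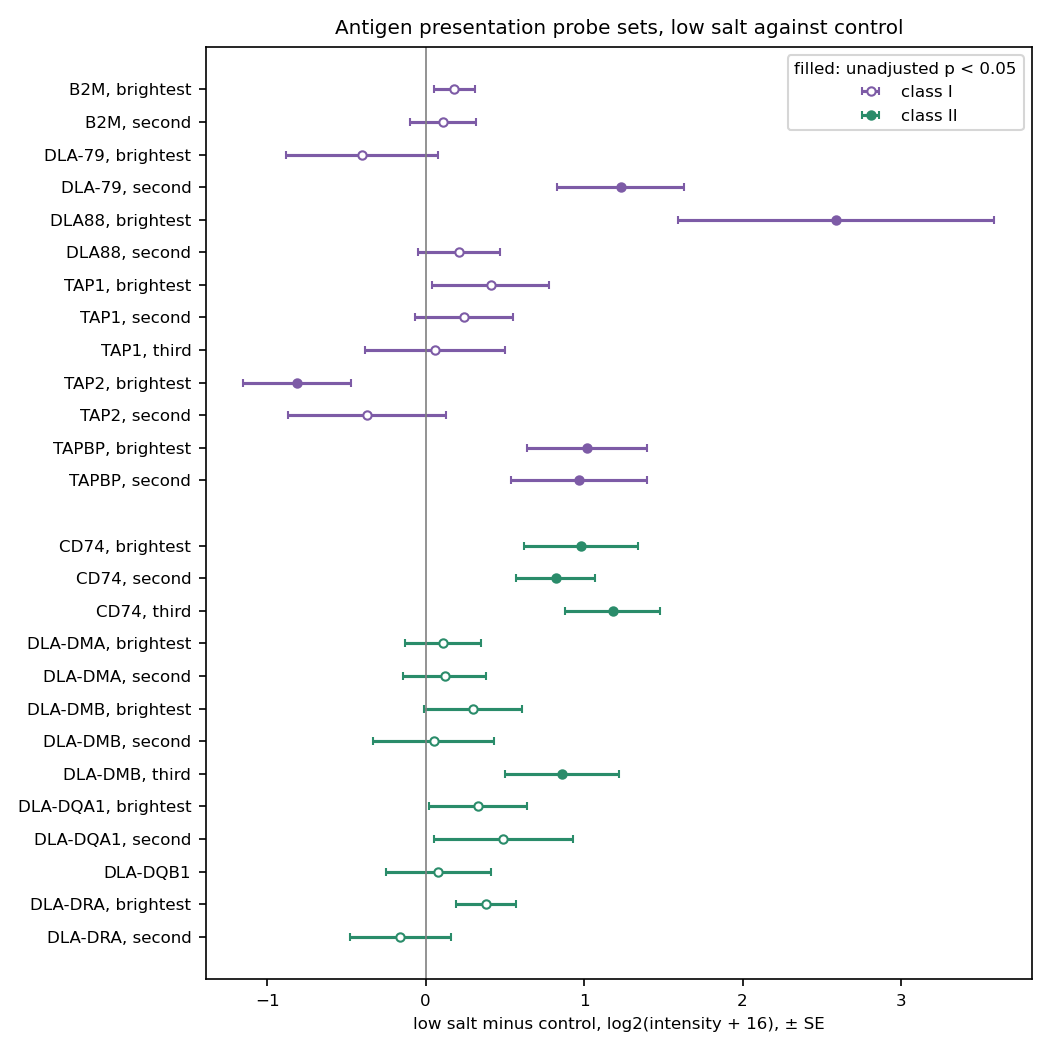
Change of each tested probe set, low salt minus control on the log2(intensity + 16) scale, with its SE as the bar. Class I genes are above and class II genes below, and probe sets of a gene are ordered by brightness. The 3 CD74 probe sets lie between 0.82 and 1.18, and DLA88 spans from 0.21 to 2.59 over its 2 probe sets.

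CD74, the invariant chain of class II molecules, stood higher in low salt in all 3 of its probe sets, by 1.77 to 2.27-fold on the offset scale. None passed over all probe sets. The dimmest of the 3 had deposited intensities of 69.2, 123, 89.3 and 74.4 in low-salt samples 1 to 4, against 41.3, 37.4 and 44.4 in controls 1, 3 and 4. Every low-salt array lay above every control array, and the 3 controls were close together. On the log2 scale this probe set averaged 6.77 ± 0.33 in low salt (SD, n = 4) and 5.59 ± 0.16 in controls (SD, n = 3). The difference was 1.18 ± 0.30 (SE, limma adjusted p = 0.154).

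The middle CD74 probe set read 445, 704, 432 and 443 in low salt against 346, 196 and 275 in controls, as deposited. The groups again did not overlap, and low-salt 2 was the highest array. Its difference was 0.82 ± 0.25 (SE, adjusted p = 0.253). The brightest CD74 probe set read 727, 943, 446 and 648 in low salt against 576, 350 and 165 in controls. Here control 1 lay above low-salt 3, so the groups overlapped, and control 4 was far below the rest. The difference of 0.98 ± 0.36 (SE, adjusted p = 0.342) became 0.49 without control 4 and 1.44 without control 1. Averaged over its 3 probe sets, CD74 differed by 1.0 ± 0.24 (SE, adjusted p = 0.166 over the genes). In the 9 other settings that keep all arrays, the dimmest probe set ran from 0.71 to 1.53 and the middle one from 0.68 to 1.29. With 1 array left out in turn they ran from 1.01 to 1.32 and from 0.61 to 1.01.

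**Figure D2:**
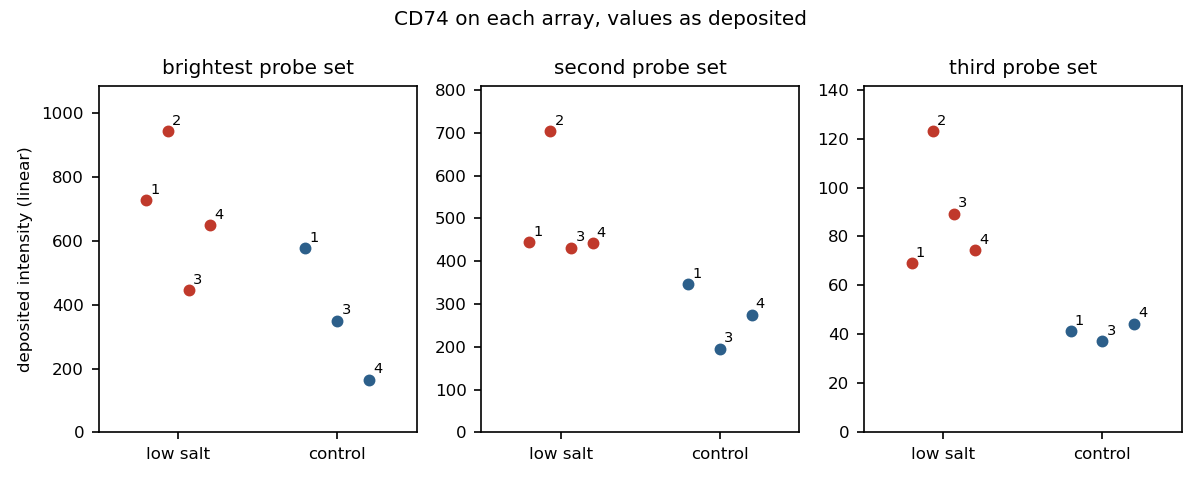
Deposited CD74 intensity on each of the 4 low-salt and 3 control arrays, 1 panel per probe set from brightest to dimmest, each point labelled with its sample number and each axis starting at 0. In the dimmest probe set the low-salt arrays range from 69.2 to 123 and the controls from 37.4 to 44.4.

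In whole ventricle, fewer cells of a type and less RNA per cell cannot be told apart. Of 14 macrophage and dendritic cell markers 13 were named on the array and 12 tested, and 0 differed at an unadjusted p under 0.05 by limma, with a median change of 0.22. Their summed deposited intensity was 4043 to 4907 in low salt and 3072 to 5150 in controls, so the groups overlapped. The brightest markers, LYZ, MRC1 and CD163, make up most of this sum, which says little of the dimmer ones. LYZ alone read 1980 to 2880 in low salt and 1560 to 2940 in controls. No marker on this list was at 0, but ZBTB46, a dendritic cell factor, read at most 21.9 in low salt and 20.5 in controls. FLT3, ITGAX and BATF3 were tested but were also dim on some arrays, down to 1.63, 2.75 and 5.22. B cell markers summed to 67 to 225 in low salt against 144 to 267 in controls, with CD79A and CD79B, parts of the B cell receptor, at 10.8 or less on every array. T and NK cell markers summed to 153 to 365 in low salt against 396 to 854 in controls as deposited, without overlap. The 8 tested markers of this list had a median change of -0.07 after normalization. The helper T cell marker CD4 read 11.8, 12.1, 53.9 and 34.0 in low salt against 370, 153 and 92.7 in controls. Its difference was -1.95 ± 0.46 (SE, adjusted p = 0.121). In the other 7 tested markers of that list the groups overlapped, with changes between -0.32 and 0.28. Among these, CD3E, CD3D and CD3G differed by -0.32, 0.04 and -0.09. Of the B cell list 3 were tested. BLNK, an adaptor of B cell signalling, differed by -0.97 ± 0.33 (SE, adjusted p = 0.319), without overlap. PAX5 differed by -0.34 and CD22 by 0.25, both with overlapping groups. MS4A1, too dim to be tested, went the other way from BLNK. After normalization it was higher in every low-salt array than in any control, by 0.88. Endothelial markers summed to 6042 to 8220 against 6013 to 8622, fibroblast markers to 11690 to 16118 against 10080 to 16871, and cardiomyocyte markers to 53742 to 76290 against 54210 to 84612. All 8 cardiomyocyte genes, which include the ventricular myosin light chain MYL2, were bright on all arrays. What the makeup of the tissue contributes to CD74 was not tested.

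In the chains that form the class II groove, the groups overlapped in all 5 probe sets of DLA-DRA, DLA-DQA1 and DLA-DQB1, and none passed the test. DLA-DRA, the α chain of the DR molecule, read 3790, 3260, 2980 and 2700 in low salt against 2760, 2650 and 1460 in controls in its brighter probe set, as deposited. Only low-salt 4 fell among the controls, and control 4 was the lowest. The difference was 0.38 ± 0.19 (SE, adjusted p = 0.489), and it was 0.15 with control 4 left out. The other DLA-DRA probe set read 1640, 1080, 1080 and 694 against 1620, 1370 and 600, a difference of -0.16 ± 0.32 (SE, adjusted p = 0.894). HLA-DRB1, the symbol the annotation gives to the dog's DR β chain, is outside the rule and was looked up after the other values were seen. It differed by 0.04 ± 0.22 (SE, adjusted p = 0.971).

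DLA-DQA1, the α chain of the DQ molecule, averaged 8.55 ± 0.44 in low salt (SD, n = 4) and 8.22 ± 0.59 in controls (SD, n = 3) in its brighter probe set. The difference was 0.33 ± 0.31 (SE, adjusted p = 0.733), and the other probe set differed by 0.49 ± 0.44 (SE, adjusted p = 0.72). In both, control 4 was the lowest array after normalization, and low-salt 4 was the lowest of its group. DLA-DQB1, the β chain that pairs with it, had 1 probe set, with 7.27 ± 0.31 in low salt (SD, n = 4) and 7.18 ± 0.66 in controls (SD, n = 3). It differed by 0.08 ± 0.33 (SE, adjusted p = 0.95). The 2 DLA-DRA probe sets thus lay on both sides of 0, and the SE of each DQ change was nearly as large as the change or larger.

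DLA-DMA and DLA-DMB encode the DM molecule that removes the last CD74 fragment from the groove. The 2 DLA-DMA probe sets differed by 0.11 ± 0.24 and 0.12 ± 0.26 (SE), with adjusted p of 0.909 and 0.91. DLA-DMB had 3 probe sets, from 0.05 to 0.86 apart. The dimmest read 5.90, 5.81, 6.33 and 6.35 in low salt against 5.29, 4.64 and 5.77 in controls. The groups were apart by a narrow margin, between low-salt 2 and control 4, and they overlapped as deposited, where the difference was 0.45. After normalization it was 0.86 ± 0.36 (SE, adjusted p = 0.398), while the brightest differed by 0.30 ± 0.31 and the middle one by 0.05 ± 0.38 (SE). In the middle probe set low-salt 3 stood at 5.14, far below the 6.40 to 6.44 of the other low-salt arrays.

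CIITA, the coactivator that class II genes and CD74 depend on, was too dim to be tested. Its 2 probe sets read 3.32 to 11.2 and 1.41 to 7.08 in low salt, against 10.2 to 36.7 and 17.0 to 28.9 in controls, as deposited. The second of these was lower in every low-salt array than in any control. With no filter on dim probe sets it differed by -0.70 ± 0.26 (SE, adjusted p = 0.428) and the other by -0.32 ± 0.31. DLA-DOA and DLA-DOB, which form the DO molecule that restrains DM, were as dim. Their 3 probe sets read at most 19.2 in low salt and 22.1 in controls, with overlapping groups.

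The largest change among the 26 tested probe sets was that of a class I heavy chain, and it rested on 1 control array. DLA88, the classical class I gene of the dog and known as highly polymorphic, read 5850, 1180, 2110 and 4950 in low salt against 1130, 23.7 and 1920 in controls in its brighter probe set, as deposited. The groups overlapped, and control 3 was lower than all others by a wide margin. The difference was 2.59 ± 1.0 (SE, adjusted p = 0.372), and without control 3 it was 0.79. The same control 3 was not low in the other DLA88 probe set, which read 178, 328, 225 and 253 in low salt against 226, 256 and 177 in controls. That probe set differed by 0.21 ± 0.26 (SE, adjusted p = 0.808).

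DLA-79, a nonclassical class I gene, was read by 2 tested probe sets that went opposite ways. The dimmer read 17.9, 51.1, 24.7 and 21.9 in low salt against 3.66, 2.95 and 15.8 in controls. All low-salt arrays lay above all controls, though control 4 was close to low-salt 1. The difference was 1.23 ± 0.40 (SE, adjusted p = 0.294). The brighter DLA-79 probe set differed by -0.40 ± 0.48 (SE, adjusted p = 0.805), with arrays from 87.0 to 546 in low salt and from 226 to 660 in controls. The last DLA-79 probe set and the 1 probe set of DLA-64 were too dim to be tested, at most 25.8 and 19.6 in low salt and at most 19.4 and 11.3 in controls.

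B2M, which encodes β2-microglobulin, the subunit common to all class I molecules, differed little between the groups, and its probe sets did not pass the test. The brighter probe set read 12.60, 12.78, 12.74 and 12.70 in low salt against 12.84, 12.50 and 12.23 in controls. Control 1 lay above and controls 3 and 4 below all low-salt arrays. The difference was 0.18 ± 0.13 (SE, adjusted p = 0.658), and the other probe set differed by 0.11 ± 0.21 (SE, adjusted p = 0.894), or by -0.19 without control 4. The spread was 0.08 in low salt (SD, n = 4) and 0.31 in controls (SD, n = 3) for the brighter one, and 0.13 against 0.56 for the other.

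For the peptide transporter, TAP1 stood slightly higher and TAP2 lower in low salt, and neither passed the test. TAP1 differed by 0.41 ± 0.37, 0.24 ± 0.31 and 0.06 ± 0.44 (SE) in its 3 probe sets, with adjusted p of 0.727 to 0.978. TAP2 read 54.2, 104, 88.9 and 102 in low salt against 269, 201 and 119 in controls in its brightest probe set. All low-salt arrays were lower than all controls as deposited, but after normalization low-salt 2 and 4 (7.05 and 7.08) lay above control 4 (6.78). The difference was -0.81 ± 0.34 (SE, adjusted p = 0.406), and it ran from -1.24 without control 4 to -0.54 without control 1. The second TAP2 probe set differed by -0.37 ± 0.50 (SE), and the last was too dim to be tested. No test was made between TAP1 and TAP2.

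TAPBP, which encodes tapasin, the bridge between the transporter and empty class I molecules, was dim and higher in low salt in both probe sets. The brighter read 24.1, 27.4, 58.8 and 28.0 in low salt against 5.37, 4.43 and 52.2 in controls, as deposited. Controls 1 and 3 were low, while control 4 lay within the range of the low-salt arrays. After normalization the groups no longer overlapped, at 5.80 ± 0.11 in low salt (SD, n = 4) and 4.78 ± 0.70 in controls (SD, n = 3). The difference was 1.02 ± 0.38 (SE, adjusted p = 0.362), and the other probe set differed by 0.97 ± 0.43 (SE, adjusted p = 0.434). With values as deposited each differed by 0.66, and neither stood at an unadjusted p under 0.05. Low-salt 3 and control 4, the brightest TAPBP arrays as deposited, also had the highest array medians of their groups (44.2 and 51.3).

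**Figure D3:**
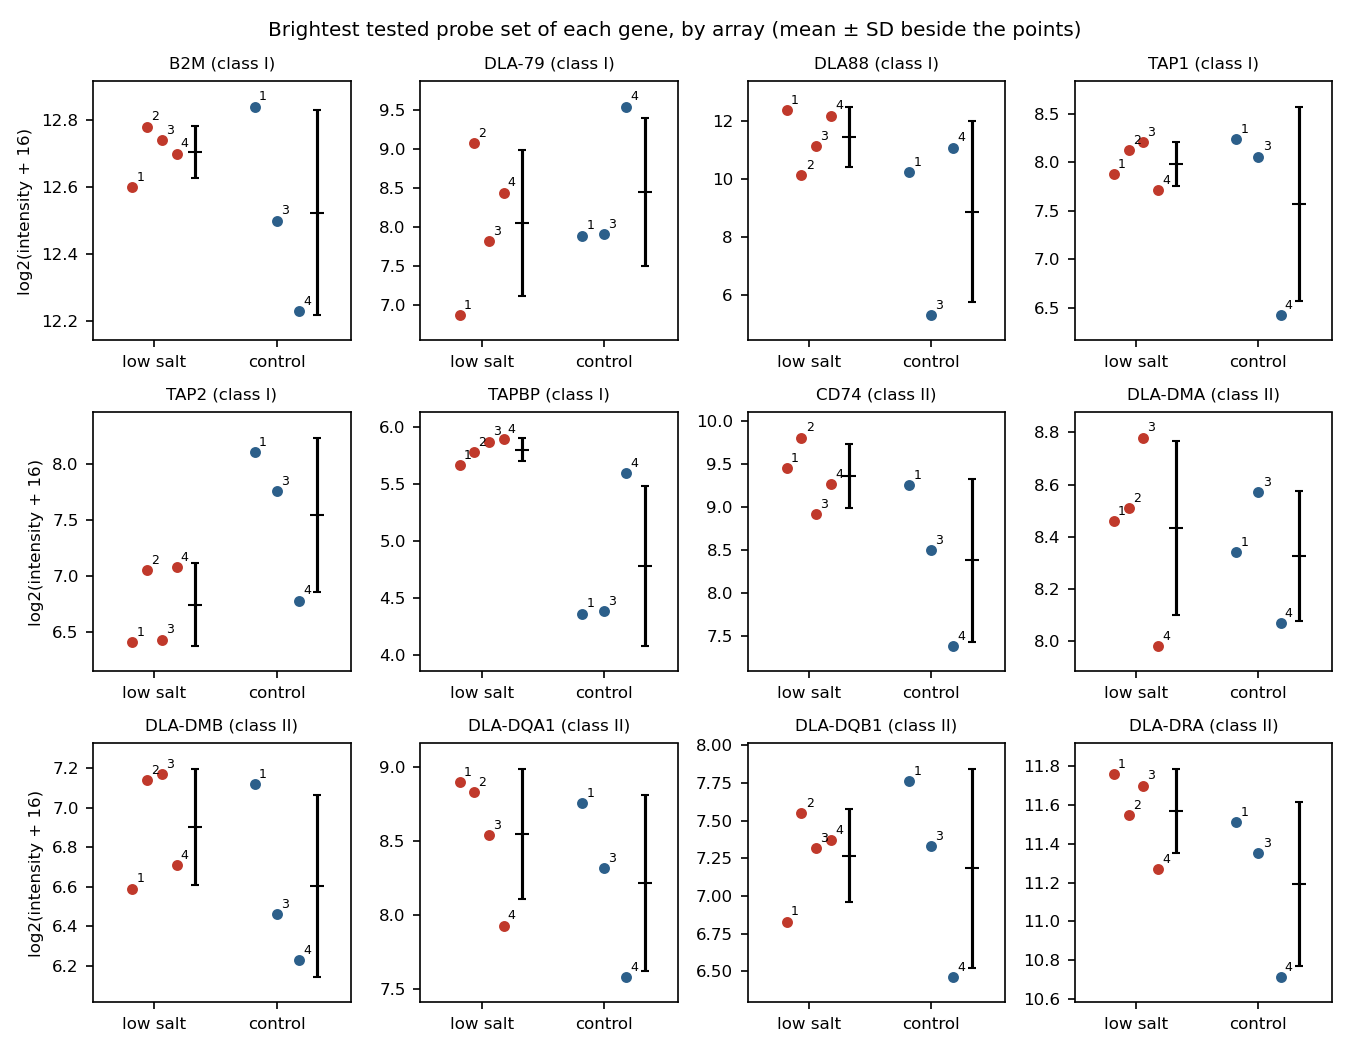
Log2(intensity + 16) of the brightest tested probe set of each of the 12 tested genes on the 4 low-salt and 3 control arrays, with sample numbers at the points and the mean ± SD beside them. Each panel has its own axis. Control 4 is the lowest array in 7 of the 12 panels, and control 3 sets DLA88 apart at 5.31.

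After normalization control 4 was the lowest of the 7 arrays in 13 of the 26 probe sets, where it was the lowest in 16.7% of all tested probe sets. Over the brightest probe set of each gene this held for B2M, TAP1, CD74, DLA-DRA, DLA-DQA1, DLA-DQB1 and DLA-DMB, 7 of 12. Control 4 had the highest deposited median of all arrays, 51.3. As deposited, low-salt 1 was lower than control 4 in DLA-DQB1 (83.9 against 99.8) and DLA-DMB (65.9 against 87.0). The SD was larger among the 3 controls than among the 4 low-salt arrays in 18 of the 26 probe sets, or 69.2%, while 54.2% of all probe sets had the larger SD in controls. Averaged over genes, the class I level was 8.79 ± 0.16 in low salt (SD, n = 4) and 8.29 ± 0.55 in controls (SD, n = 3). The array behind the low control mean was control 3, at 7.65, and the 2 other controls were both at 8.61. Of the genes averaged, DLA88 set control 3 apart, at 5.31 against 10.24 and 11.10 in controls 1 and 4. The change of DLA88 was 2.59, against -0.81 to 1.02 for the other class I genes, so this average leans on 1 probe set. The class II level was 8.68 ± 0.20 in low salt (SD, n = 4) and 8.32 ± 0.53 in controls (SD, n = 3), with control 4 at 7.74 and control 1 at 8.79. These averages are a description of 6 genes each.

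**Figure D4:**
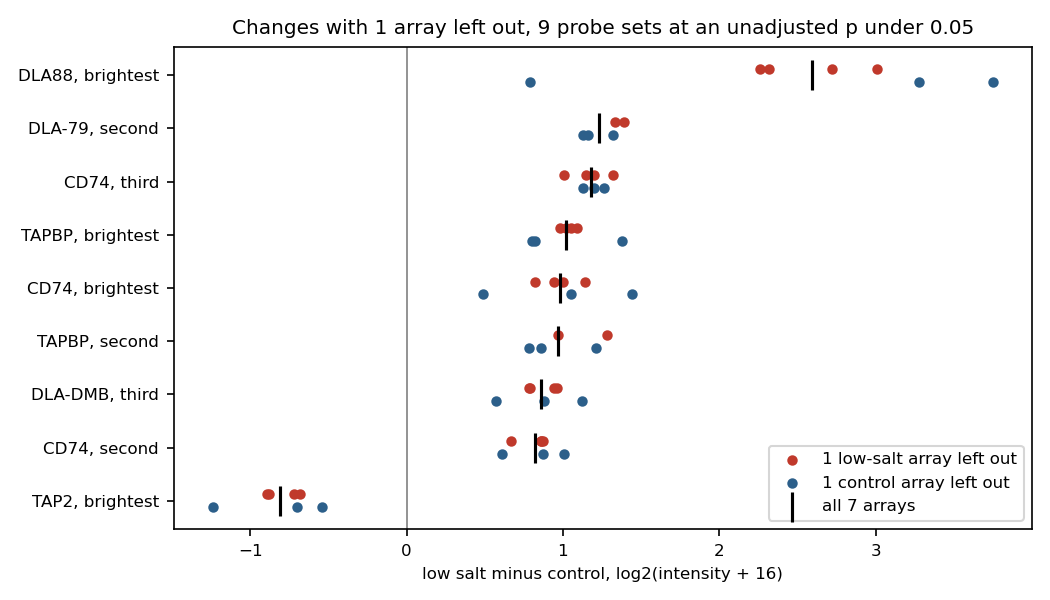
Change of the 9 probe sets at an unadjusted p under 0.05, low salt minus control on the log2(intensity + 16) scale, with all 7 arrays (bar) and with each array left out (points), where the probe set was still bright enough. DLA88 drops to 0.79 without control 3, and the dimmest CD74 probe set stays between 1.01 and 1.32.

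The design text calls a difference at a nominal p of 0.05 with at least a 2-fold change. By limma 4 of the 26 probe sets met this, all higher, against 4.4% of all probe sets and 1.67% in the higher direction. They were the brighter DLA88 probe set, the dimmer tested DLA-79 probe set, the brighter TAPBP probe set and the dimmest CD74 probe set. By the methods' t-test 3 of them passed, without DLA88, against 3.04% of all. Which probe sets meet the rule depends on the scale. With an offset of 1 the brightest CD74 (1.03), the dimmest DLA-DMB (1.35) and the dimmer TAPBP (2.08) met it too by limma. With values as deposited the dimmest CD74 was at 0.85 and the brightest TAP2 at -1.0.

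The other genes of the pathway stood at an unadjusted p under 0.05 about as often as all genes on the array. Of 71 genes 56 were named on the array and 46 tested, each by its brightest probe set. None passed an adjusted p of 0.05 by limma, where 0.281% of all genes did. At an unadjusted p under 0.05 stood 2 higher (CTSS and CD40) and 2 lower (MARCHF8 and SPPL2A), against 5.57% of all genes higher and 4.89% lower. Their median change was 0.18, against 0.05 over all genes. With array medians set equal, which moved the median change of all probe sets to 0.26, 10 stood higher and 1 lower, against 11.4% and 3.29% of all genes. Without control 1 the numbers were 6 higher and 2 lower, against 3.97% and 3.45%.

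Cathepsin S (CTSS) cuts CD74 down to the fragment that DM removes. It read 10.30, 10.34, 10.41 and 10.08 in low salt against 9.39, 9.80 and 9.40 in controls. The groups did not overlap, with control 3 the closest to low salt. The difference was 0.75 ± 0.18 (SE, adjusted p = 0.113), from 0.68 to 0.89 with 1 array left out. Its other tested probe set differed by 0.58 ± 0.30 (SE, adjusted p = 0.507).

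CD40, the receptor by which T cells license antigen-presenting cells, read 6.68, 6.50, 6.42 and 7.17 in low salt against 4.86, 5.92 and 5.88 in controls. It differed by 1.14 ± 0.35 (SE, adjusted p = 0.261) and has 1 tested probe set. MARCHF8, a ligase that tags membrane proteins for removal, differed by -1.17 ± 0.35 (SE, adjusted p = 0.261), but its dimmer tested probe set differed by 0.52. In the brighter one low-salt 2 lay above control 4. SPPL2A, the membrane protease that clears the CD74 stub, differed by -0.62 ± 0.29 (SE, adjusted p = 0.45), and its other tested probe set by -0.51. IFI30, a thiol reductase of the lysosome, differed by 0.38 ± 0.23 (SE, adjusted p = 0.58).

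Peptide loading and trimming (8 genes tested) had a median of 0.10, with the disulfide isomerase PDIA3 at 0.35 ± 0.23 (SE) and calnexin (CANX) at -0.16 ± 0.12. The immunoproteasome and its activator (6 tested) had a median of 0.25, with PSME3 at 0.38 ± 0.22 and PSME2 at 0.27 ± 0.19. Among regulators (11 tested, median 0.20) RFXAP, part of the complex on which CIITA acts, differed by 0.53 ± 0.25 (SE, adjusted p = 0.462), and the methyltransferase EZH2 by 0.67 ± 0.44. Interferon-gamma signalling (7 tested, median 0.29) held JAK1 at 0.32 ± 0.15 (SE, adjusted p = 0.474), without overlap, and the tryptophan-degrading enzyme IDO1 at 0.47 ± 0.47. In the dimmer tested JAK1 probe sets the groups overlapped, with changes of -0.54, -0.14, 0.16 and 0.28. Class I-like molecules (2 tested) held AZGP1 at 0.32 ± 0.48 and the IgG receptor FCGRT at -0.05 ± 0.32. Costimulation (4 tested, median 0.30) held, beside CD40, the T cell ligand CD86 at 0.52 ± 0.31.

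**Figure D5:**
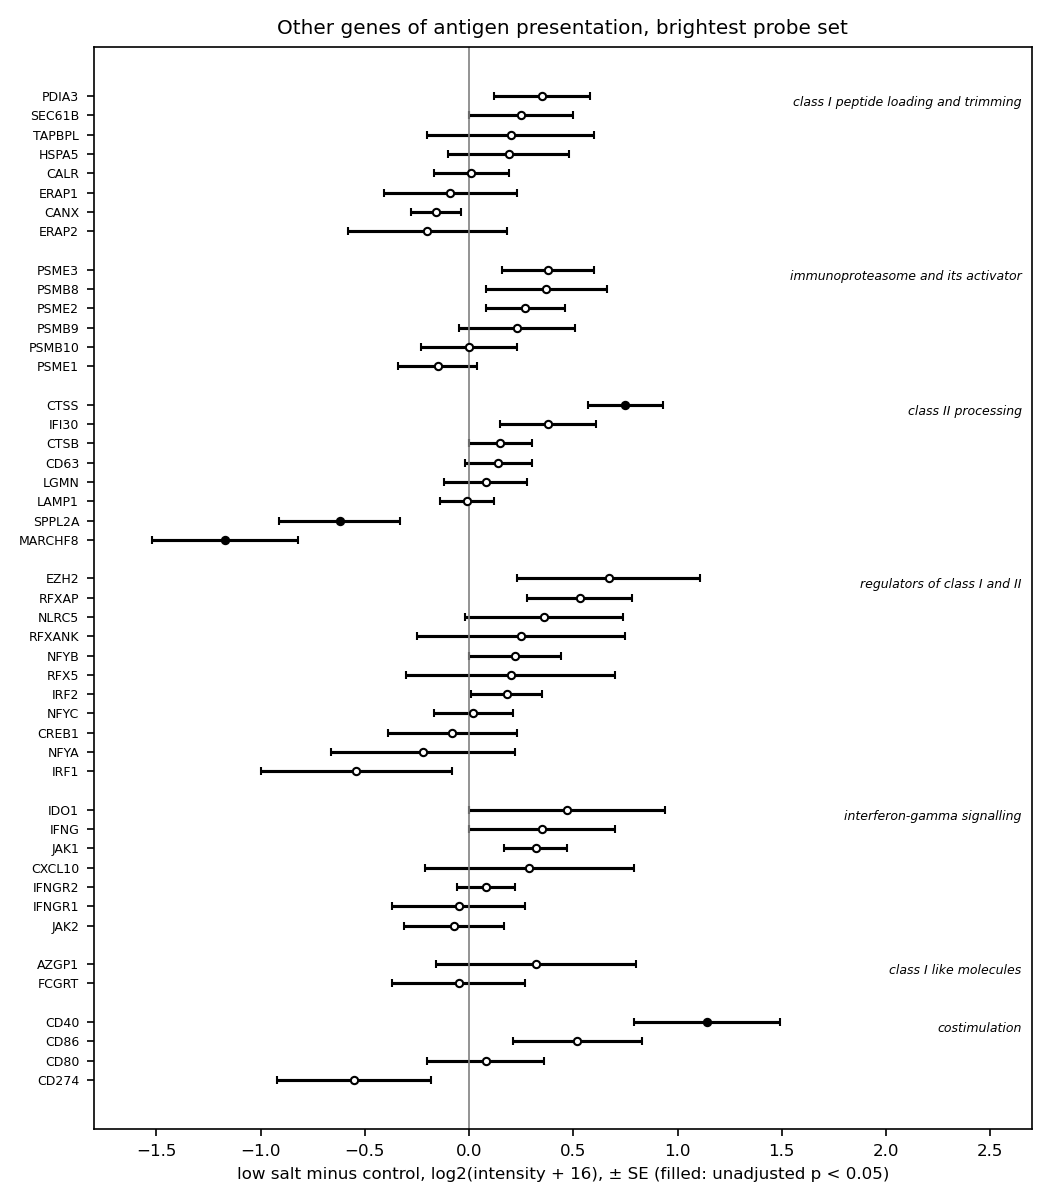
Change of the brightest probe set of 46 other antigen presentation genes, low salt minus control on the log2(intensity + 16) scale with the SE as the bar, grouped by role. The filled points are CTSS at 0.75, CD40 at 1.14, SPPL2A at -0.62 and MARCHF8 at -1.17, the 4 at an unadjusted p under 0.05.

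The genes whose pattern over the 7 arrays was most like that of a member were looked up by Pearson correlation, as a description, since the arrays share both groups and the normalization. For the brightest CD74 probe set these were JAML, EMC3, ARAF, PNP and PTDSS1, with r of 0.984 to 0.993. JAML encodes an adhesion molecule of leukocytes. For B2M they were CYBB, the phagocyte NADPH oxidase, ZUP1, PLCL2, RAB5A and MACF1, with r of 0.95 to 0.969. For DLA-DRA they were LOC477518, NPAS4, SERINC5, KRTCAP3 and EIF2A (0.966 to 0.99) and for DLA-DQA1 FGF1, ITFG1, CD59, FECH and SETD3 (0.967 to 0.989). For DLA-DQB1 they were GPR162, NFIA, ATP6V0E1, IFIH1 and IYD (0.956 to 0.973). For DLA-DMA they were ESS2, ELMOD3, ABHD14B, RNASEK and SLC13A5 (0.943 to 0.976), and for DLA-DMB PAQR4, MINDY4, TNFAIP6, PDIA4 and SERPING1 (0.935 to 0.961).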

How the data were processed

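Left ventricular RNA was prepared with Trizol and biotin-labelled, per the labels' protocols. The authors deposited 1 linear intensity per probe set and array, made with GCOS per the submitters' processing notes. Its version, the summarisation and the array's genome build were not stated. The 2% trimmed mean was 150 to 150.1 on every array, and array medians of log2(deposited value + 16) differed by up to 0.93. From the deposited intensity, log2(value + 16) was quantile normalized, and 111 control probe sets and the dimmest 33.3% of the other 42924 (by mean over all arrays) were left out. The 28616 others were fitted with limma 3.58.1 in R 4.3.3 (lmFit, then eBayes with trend, no covariates) and adjusted by Benjamini-Hochberg. The offset understates changes of dim probe sets, and 7 arrays limit the precision. The fit was tested on simulated data.

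Genes were named from the platform annotation, where 29254 probe sets have 1 symbol, 439 several and 13231 none. The symbols of 15 of the 16 genes were matched to the assembly table by gene number, for names and neighbours. Every gene of the rule is named, with its tested probe sets; of each pathway group 2 to 4 genes of smallest unadjusted p by their brightest probe set; and 5 genes by correlation. The genes and lists were chosen with earlier results of these data known. The labels do not say whether equal sample numbers pair the arrays, and the main fit did not pair them. Deviations from the group means correlated at 0.07, -0.26 and -0.18 for numbers 1, 3 and 4. With so few arrays these values cannot settle whether the dogs were paired. No arrays held the same values. Alternatives were offsets of 1 and 64, values as deposited, equal medians, other filters, array weights, the methods' t-test, a replicate block, probe set means and leaving out each array.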

Additional observations from a re-analysis of the deposited data

Results flagged for a closer look

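In 4 of the 34 probe sets, 1 of the 4 low-salt arrays lay so far from the others that its gap passed Dixon's 95% critical value, and chance gives about 1 such group in 20. In the middle CD74 probe set low-salt 2 stood at 9.40, above 8.78 to 8.88 in the others. In the middle DLA-DMB probe set low-salt 3 stood at 5.14, below 6.40 to 6.44. In the second TAP2 probe set low-salt 1 stood at 6.20, above 4.43 to 4.50. In a DLA-DOA probe set too dim to be tested low-salt 1 stood at 4.88, above 4.40 to 4.45. Without low-salt 2 the CD74 difference was 0.67, and without low-salt 3 the DLA-DMB difference was 0.38. The groups of 3 controls were not checked in this way.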

How the results depend on the processing

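With 7 arrays, no probe set of the 16 genes passed an adjusted p of 0.05 by limma in any of the settings run, and of 406 values under alternatives 377 kept their direction. The count at an unadjusted p under 0.05, 9 in the main setting, was 5 by the methods' t-test, 6 as deposited (5 shared, without both TAPBP, the dimmer DLA-79 and the dimmest DLA-DMB) and 4 (without control 3) to 8 with 1 array left out. The pathway count of 4 became 11 with array medians set equal, 7 with probe set means per gene, and 3 to 8 (without control 1) with 1 array left out. Over all probe sets 99 passed, against 39 with an offset of 1, 165 as deposited, 139 with equal medians, 27 with no filter, 177 with array weights, 4 by the methods' t-test, and 21 to 290 with 1 array left out (21 without low-salt 4 or control 1, 290 without control 4). Of these calls 11 were higher and 88 lower, against 33 and 106 with equal medians. The replicate block gave 27 over all probe sets and 0 of the members after adjustment. Before adjustment it gave 8 of the members, of which 6 were shared with the fit without it. The share of all probe sets at an unadjusted p under 0.05 was not counted under the block, so these 8 have no background beside them. The brightest TAP2, the dimmer TAPBP and the dimmest DLA-DMB left the count under the block, and the brighter DLA-79 (-0.74) and brighter DLA-DRA (0.39) entered it. The class I and class II averages kept their sign in each scaling, at 0.36 to 0.83 and 0.30 to 0.73. The class I average holds the brighter DLA88 probe set in each scaling, whose change of 2.59 was 0.79 without control 3. It was not computed without that probe set. The median change over all probe sets was 0.04, against -0.18 for values as deposited and 0.26 when medians were equalised.

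Signs turned in 12 probe sets, none at an unadjusted p under 0.05, with changes of -0.40 to 0.49, and the cause was not tested. As deposited, the changes were -0.29 and -0.12 for the third and second TAP1 probe sets, -0.35 and -0.02 for the middle and brightest DLA-DMB, -0.14 for DLA-DQB1 and -0.15 for the dimmer DLA-DMA. With equal medians they were 0.04 for the brighter DLA-79 and 0.40 for the dimmer DLA-DRA. Array weights gave -0.02 for the third TAP1 and for DLA-DQB1, and the replicate block -0.06 for the middle DLA-DMB and -0.01 for DLA-DQB1. With 1 array left out, ranges were -0.08 to 0.38 for the middle DLA-DMB, -0.29 to 0.38 for DLA-DQB1, -0.37 to 0.42 and -0.17 to 0.75 for the third and brightest TAP1, and -0.02 to 0.25 for the brighter DLA-DMA. They were -0.56 to 0.12 for the dimmer DLA-DRA, -0.72 to 0.15 for the brighter DLA-79, -0.04 to 0.90 for the dimmer DLA-DQA1 and -0.19 to 0.36 for the dimmer B2M.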
